A study of Saccharomyces cerevisiae with 8 samples.

Results

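Nrd1-unterminated transcripts (NUTs) are the RNAs of budding yeast that lengthen or appear when the RNA-binding protein Nrd1 is taken away, and 1523 of the 11844 features in the table carry a NUT name. They were taken by that name alone. The unit throughout is the scaled read per kb, a deposited density multiplied by 1000. Of the 1523, 1243 averaged 2 or more over the 8 libraries and were tested, 280 lay below that mean, and 3 of the 280 had no read in any library. The RNA came from 4 groups of BY4741 (MATa his3Δ1 leu2Δ0 met15Δ0 ura3Δ0) with 2 biological replicates each: upf1 cells (upf1::kanMX4) given cycloheximide (CHX), upf1 cells given DMSO, wild-type (WT) cells given CHX, and WT cells given DMSO. UPF1 encodes the helicase of nonsense-mediated decay, and CHX blocks translation elongation. Cells in YPD at 30 °C and OD600 0.5 had 100 µg/ml CHX or DMSO for 15 min. Before stranded libraries were made, 1.5 µg of total RNA with 3 µl of ERCC mix was digested for 1 h at 30 °C by Terminator (1 unit), an exonuclease that removes 5′-monophosphate RNA but not capped RNA. The study asked which RNAs that build up with CHX or without decay are capped.

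Nrd1 acts with Nab3, which also binds RNA, and with the helicase Sen1. This complex ends transcription of short non-coding RNAs and of most independently transcribed small nucleolar RNAs (snoRNAs), and hands the released RNA to the nuclear exosome for trimming or decay. Without it the polymerase runs on, and a NUT can therefore begin at a snoRNA, a cryptic unstable transcript (CUT) or an mRNA and extend beyond it. NUTs run in the sense or antisense direction of other annotated features, so reads of one may be counted for another.

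The NUTs of highest level mostly shared reads with snoRNAs. The sequence after the 3′ end of such RNAs, where Nrd1 and Nab3 are known to bind, is shown for 4 of them. The 4 are examples, and of their NUTs only NUT0490 is among the 10 of highest level. NUT0550, NUT0426 and NUT0167 averaged 1181, 944 and 685. The lines give the 100 bases after the RNA in RefSeq R64, on its own strand and 5′ to 3′. The Nrd1 motifs GTAA and GTAG and a Nab3 motif, CTTG, are in capitals. Other forms of the motifs were not counted, so a window without CTTG may still hold a Nab3 site. They are chrXII:199390-199489 (plus strand) after snR30, chrIV:1403043-1403142 (plus) after snR13, chrX:663943-664042 (plus) after snR3 and chrXII:899383-899482 (plus) after snR34. The files give no coordinates for NUTs, so how far these windows lie inside NUT0490, NUT0167, NUT0426 and NUT0550, which share reads with the 4 RNAs, is not known.
snR30: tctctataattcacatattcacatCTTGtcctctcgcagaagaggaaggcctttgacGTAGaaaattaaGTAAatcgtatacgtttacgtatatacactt
snR13: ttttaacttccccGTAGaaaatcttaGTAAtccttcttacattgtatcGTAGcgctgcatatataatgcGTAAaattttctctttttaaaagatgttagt
snR3: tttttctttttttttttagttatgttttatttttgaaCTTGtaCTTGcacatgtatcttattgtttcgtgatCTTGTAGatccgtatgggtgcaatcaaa
snR34: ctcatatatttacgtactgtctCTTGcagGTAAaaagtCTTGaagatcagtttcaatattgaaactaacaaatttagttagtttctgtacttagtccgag
The snR30 window held GTAA, GTAG and CTTG once each, the snR13 window GTAA and GTAG 2 times each and no CTTG, the snR3 window CTTG 3 times and GTAG once, and the snR34 window CTTG 2 times and GTAA once. In the snR3 window the last CTTG shares its final letter with GTAG, and both are printed as 1 run. Of 23 windows after the stable RNAs that share reads with NUTs, 19 held a Nrd1 motif (82.6%) and 15 held CTTG (65.2%). After all snoRNAs and spliceosomal RNAs 67.1% of windows held a Nrd1 motif and 56.1% held CTTG. After protein-coding genes these shares were 52.9% and 23.5%. The window after snR19 held none of these motifs. Both kinds stood in 12 of the 23 (52.2%), against 33 of 82 windows (40.2%) after all snoRNAs and spliceosomal RNAs. After protein-coding genes it was 711 of 6021 windows (11.8%). The 82 include the windows of the snoRNAs and spliceosomal RNAs among the 23, so counts of the 23 and of the 82 are not separate. On the opposite strand of the same windows both kinds stood in 1 of 23 (4.35%), 5 of 82 (6.10%) and 733 of 6021 (12.2%). A match describes these letters and shows no binding.

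Most NUTs were read weakly, and a few very strongly. The libraries held 1789934 and 5689067 reads on listed features in upf1 CHX, 2949787 and 2170091 in upf1 DMSO, 2680953 and 4688210 in WT CHX, and 2394737 and 1310994 in WT DMSO. NUTs held between 5.35% and 7.98% of them. The median NUT had 7 and 24 reads in upf1 CHX, 5 and 4 in upf1 DMSO, 11 and 16 in WT CHX, and 2 and 1 in WT DMSO. In the 2 WT DMSO libraries 368 and 613 NUTs had no read, against 10 to 246 in the other libraries. For most members the WT DMSO group thus gives a low base of reads.

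The median level of the 1523 NUTs was 8.48 and 8.32 in upf1 CHX, 2.76 and 2.19 in upf1 DMSO, 8.78 and 7.28 in WT CHX, and 1.36 and 0.965 in WT DMSO. Both CHX groups stood above both DMSO groups, and upf1 DMSO above WT DMSO, with no overlap of libraries in either case. Over the 8 libraries a NUT had a median level of 5.17, against 7 for the 913 CUTs, 8.08 for the 835 SUTs (stable unannotated transcripts) and 6.80 for the 1628 XUTs (targets of the exonuclease Xrn1). Recovered lengths ran from 138 to 8314 nt with a median of 1516 nt, longer than the median CUT (389.5 nt), SUT (761 nt) or XUT (608 nt). Longer NUTs had somewhat lower levels (Spearman correlation -0.21 across 1520 NUTs with a length, which share libraries and genome neighbourhoods). The level was at least 10 in 388 NUTs, at least 100 in 34 and at least 1000 in 18. At the limit for testing, NUT0193 (2.02), NUT0673 (2.04), NUT0081, NUT0129 and NUT0847 (2.06 each) lay just inside, and NUT0197 and NUT1219 (2.00 each, just short of the limit), NUT0991 (1.98), NUT0383 and NUT0516 (1.97 each) just outside.

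**Figure D1:**
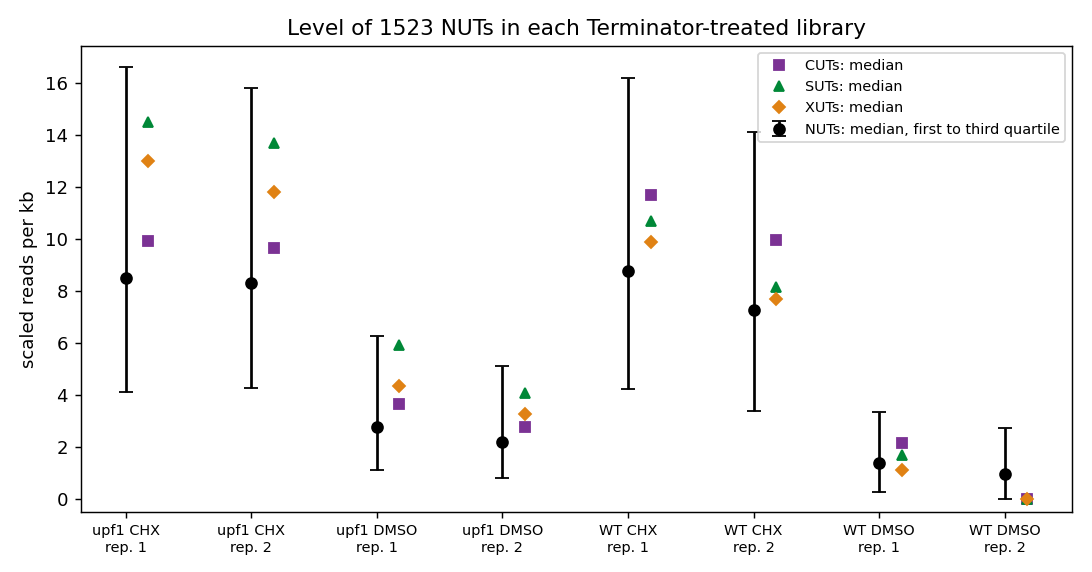
Level of NUTs in each library, in scaled reads per kb. Points are medians of 1523 NUTs with bars from the first to the third quartile, and coloured marks are medians of the CUTs, SUTs and XUTs. The NUT medians lie between 7.28 and 8.78 in the 4 CHX libraries and between 0.965 and 2.76 in the 4 DMSO libraries.

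A small set of NUTs carried most of the signal, and their reads were those of stable RNAs. A NUT was taken to share reads with a feature when the summed difference of their reads over the 8 libraries was at most 5% of the reads of the NUT, the NUT had at least 100 reads, and the rows lay at most 10 apart. Of 587 NUTs with at least 100 reads, 23 shared reads with a stable RNA (20 snoRNAs, the U1 RNA snR19, the U4 RNA snR14 and NME1, the RNA of RNase MRP), 26 with a protein-coding gene, 56 with a XUT, 20 with a SUT, 7 with a CUT and 455 with none found. A NUT with partners of several classes was placed once, in the order just given; 35 NUTs share reads with a SUT and 9 with a CUT when those also placed elsewhere are counted. For the 455 with none found, a feature with only part of their reads, or with many more, would have been missed. The 23 that share with a stable RNA made up 18 of the 20 NUTs of highest level. They held 76.2% and 77.8% of the summed NUT level in upf1 CHX, 90.2% and 91.6% in upf1 DMSO, 78.0% and 81.9% in WT CHX, and 94.1% and 94.6% in WT DMSO.

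NUT0490, 1064 nt long by its recovered length, shares reads with snR30, a 606-nt H/ACA snoRNA needed to process 18S rRNA. Its level was 21249 and 20663 in upf1 CHX, 25808 and 28146 in upf1 DMSO, 23387 and 27045 in WT CHX, and 29394 and 29442 in WT DMSO. Each CHX library stood below each DMSO library of its genotype. NUT0490 fell on CHX in upf1 by 0.36 ± 0.114 on the log2 scale (limma adjusted p = 0.0269) and changed by -0.23 ± 0.114 in WT (adjusted p = 0.108). Of its 236624 reads, 66 were not counted for snR30.

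The next by level were NUT1169 (18084 over the 8 libraries, sharing with snR37), NUT0255 (9140, snR82), NUT1342 (9063, snR19), NUT0258 (8625, snR10 and, within 5%, the open reading frame YGL088W), NUT1320 (5804, snR86), NUT0607 (2954, snR11), NUT0206 (2827, snR4), NUT0661 (2636, NME1) and NUT1446 (2540, snR31). Their partners are mostly guides of rRNA pseudouridylation, with NME1 and U1 as RNAs of known other work. NUT0167, which shares with the methylation guide snR13, had 593 and 639 in upf1 CHX, 795 and 818 in upf1 DMSO, 518 and 529 in WT CHX, and 822 and 764 in WT DMSO. It fell on CHX in WT by 0.60 ± 0.147 on the log2 scale (limma adjusted p = 0.00912), the 1 NUT lower there, and in upf1 by 0.39 ± 0.147 (adjusted p = 0.0484). The WT call ended without WT DMSO replicate 1. NUT0167 and NUT0490 were the 2 NUTs lower on CHX in upf1, and both upf1 calls ended without either upf1 CHX library, without upf1 DMSO replicate 2 and without WT DMSO replicate 1. That of NUT0167 also ended without either of the other DMSO libraries.

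Which NUTs stood higher when translation was blocked was asked first in WT. Of the 1243 tested, 1000 rose on CHX (80.5%), against 69.8% of all features tested, and 1 fell, against 0.106% of all features. The limit for testing is on the mean of all 8 libraries, so a NUT low in DMSO can pass it through its CHX libraries. Without that limit 1090 of 1520 NUTs rose and 1 fell, and the share over all features was not taken for that setting. The median NUT changed by 1.59 on the log2 scale, against 1.42 over all features tested, 1.78 over 756 CUTs, 1.75 over 705 SUTs and 1.80 over 1373 XUTs. Among all 1523 NUTs, 1476 had the higher mean in CHX, and in 1356 (89.0%) both CHX libraries lay above both DMSO libraries, against 79.7% of all features. The median protein-coding gene rose by 1.23 on the same scale. The median of 76 snoRNAs changed by 0.02, with 13 higher (17.1%) and 4 lower. On the deposited scale the median snoRNA thus stayed level and the median mRNA did not, and how the factors were made is not given. Undigested RNA was not analysed here, so more RNA and a larger capped share of it cannot be told apart, and in bulk RNA more cells with an RNA and more RNA per cell cannot be told apart. Scaling the libraries to 1 protein-coding median, which lowers the protein-coding median by 1.24 and puts the NUT median at 0.77, left 265 NUTs higher, with 34 lower; after quantile normalization the NUT median was 0.01 and 68 were higher, with 39 lower. The median NUT lay 0.36 above the protein-coding median in WT.

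In upf1 cells 795 of the 1243 rose on CHX (64%), against 64.1% of all features tested, and 2 fell, against 0.154%. Without the limit on the mean 855 of 1520 NUTs rose and 2 fell. The median NUT changed by 1.18, against 1.22 over all features and 1.25 over protein-coding genes, of which it lay 0.07 below. Both CHX libraries lay above both DMSO libraries in 1308 of all 1523 NUTs (85.9%), against 80.8% of all features. The 2 lists held 737 NUTs in common, 92.7% of the 795 called in upf1 and 73.7% of the 1000 called in WT. Called rises in upf1 numbered 247 when upf1 CHX replicate 1 was left out, 425 when it was upf1 CHX replicate 2, and 313 when it was upf1 DMSO replicate 2. Scaled to 1 protein-coding median 8 NUTs were higher and 28 lower, with a NUT median of 0.11, and quantile normalization gave 9 and 24 and turned the median to -0.08. The interaction of CHX with genotype called 0 NUTs by limma, 126 (10.1%) passed an unadjusted p of 0.05, 3 higher and 123 lower, against 9.08% of all features, and voom called 0. Its median was -0.42 over NUTs and -0.18 over all features. Over CUTs, SUTs and XUTs it was -0.54, -0.61 and -0.57, and over protein-coding genes -0.01.

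**Figure D2:**
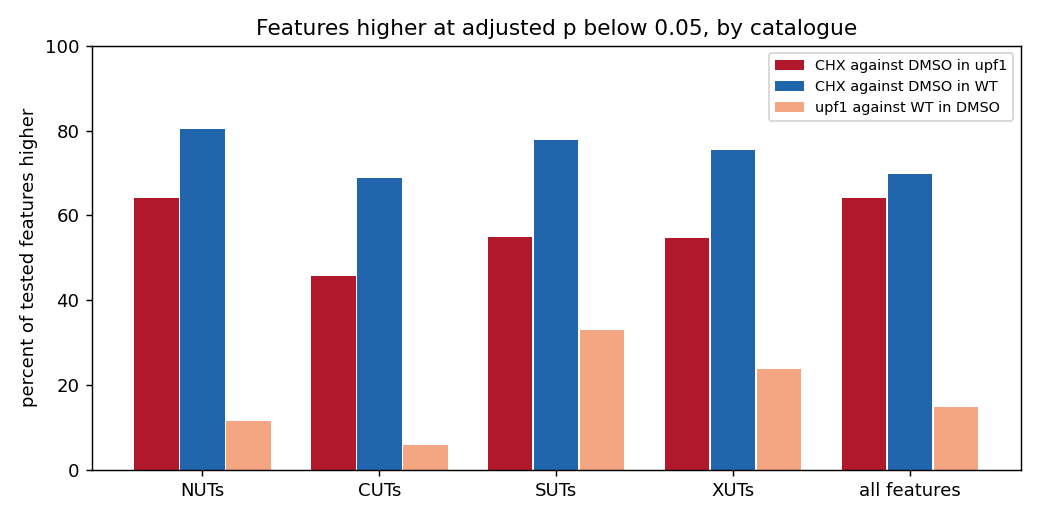
Percent of tested features that were higher at adjusted p below 0.05 in each catalogue, for CHX in upf1, CHX in WT, and upf1 in DMSO. NUTs stand at 64%, 80.5% and 11.4%, beside 64.1%, 69.8% and 14.7% over all features tested.

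On the log2 scale with 2 added to each level, the largest named rise was at NUT0592 (772 nt, chromosome XIII, listed between SPC24 and SHH3). It had 83.0 and 75.3 in upf1 CHX, 6.28 and 1.23 in upf1 DMSO, 131 and 110 in WT CHX, and 3.63 and 2.15 in WT DMSO. All 4 CHX libraries stood above all 4 DMSO libraries. It rose by 4.66 ± 0.437 in WT (limma adjusted p = 0.000444) and by 3.97 ± 0.437 in upf1 (adjusted p = 0.00175), on 213 reads in WT CHX against 4 in WT DMSO. No other feature was found that shares its reads within 5%, and a feature with only part of them would be missed.

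NUT0537 (1489 nt, chromosome XII, between the checkpoint gene MEC3 and GUF1) had 70.1 and 88.2 in upf1 CHX, 11.9 and 21.8 in upf1 DMSO, 149 and 125 in WT CHX, and 8.16 and 8.94 in WT DMSO. It rose by 2.15 ± 0.308 in upf1 (limma adjusted p = 0.00311) and by 3.72 ± 0.308 in WT (adjusted p = 0.000398). NUT0203 (2301 nt, chromosome V, between SPR6 and SLX8) rose by 3.64 ± 0.349 in WT, on 243 reads in WT CHX against 9 in WT DMSO. NUT1387, NUT1295 and NUT0382 rose by 3.93, 3.75 and 3.69 in WT on 2 reads each in WT DMSO. With counting error only, the ratios were 21.4 (95% interval 5.67 to 181), 32.8 (8.82 to 275) and 9.98 (2.52 to 86.5). NUT0564, with no partner found within 5%, rose by 3.96 ± 0.522 in WT on 134 reads in WT CHX against 5 in WT DMSO. The call of NUT0382 ended under both other scalings. NUT1125, among subtelomeric rows where repeated sequence makes reads uncertain, held 60 reads in WT CHX, against 0 in WT DMSO, at least 14.3-fold higher with a floor of 3 reads over the group, and 35 reads in upf1 CHX, against 0 in upf1 DMSO, at least 10.8-fold higher. The order depends on the scale: in WT NUT1125 rose by 5.4 and NUT0592 by 4.99 by voom, and by 3.57 and 3.53 scaled to 1 protein-coding median.

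In upf1 the next rise after NUT0592, on the scale with 2 added, was that of NUT1458 (1197 nt, between ACM1 and DIM1), which had 19.9 and 22.6 in upf1 CHX and 1.35 and 0 in upf1 DMSO. NUT1080 (1747 nt, between SLI1 and RTA1) rose by 3.09 ± 0.345 in upf1 (limma adjusted p = 0.00178) and 3.21 ± 0.345 in WT, with 38.8 and 26.7 in upf1 CHX against 1.85 and 2.18 in upf1 DMSO. NUT0366 (1098 nt, between MMF1 and PCL7) rose by 3.03 ± 0.360 in upf1. NUT0534, NUT0185 and NUT0441 rose by 3.01, 2.94 and 2.84, and their calls ended under both other scalings. On 1 read each in upf1 DMSO, the ratios of NUT0185 and NUT0441 were 84.2 (95% interval 14.7 to 3361) and 25 (4.12 to 1023), with counting error only. For NUT1458 it was 30.1 (8 to 254) on 2 reads.

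Of the groups of NUTs by shared reads, the one with a stable RNA had no rise on CHX on the deposited scale, where the median snoRNA stayed near 0. Scaled to 1 protein-coding median, the medians of this group on CHX were -1.68 in WT and -1.69 in upf1. On CHX in WT the 23 NUTs with a stable RNA had a median log2 change of -0.17 and 0 of 23 rose (0 at an unadjusted p of 0.05, 0 by voom), while 55 of 56 with a XUT (median 2.05), 19 of 20 with a SUT (1.87), 7 of 7 with a CUT (2.29), 23 of 26 with a protein-coding gene (1.73) and 427 of 455 with none found (1.83) rose, against 69.8% of all features tested. Of the 656 tested NUTs with fewer than 100 reads, 469 rose (71.5%, median 1.47), so the higher shares above also go with the minimum of reads. In upf1 the same medians were -0.20 with a stable RNA, where 0 rose and 2 fell, against 1.22 with a XUT, 1.18 with a SUT, 1.30 with a CUT, 1.43 with a protein-coding gene and 1.29 with none found. A NUT and the feature that holds its reads are not separate observations.

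**Figure D3:**
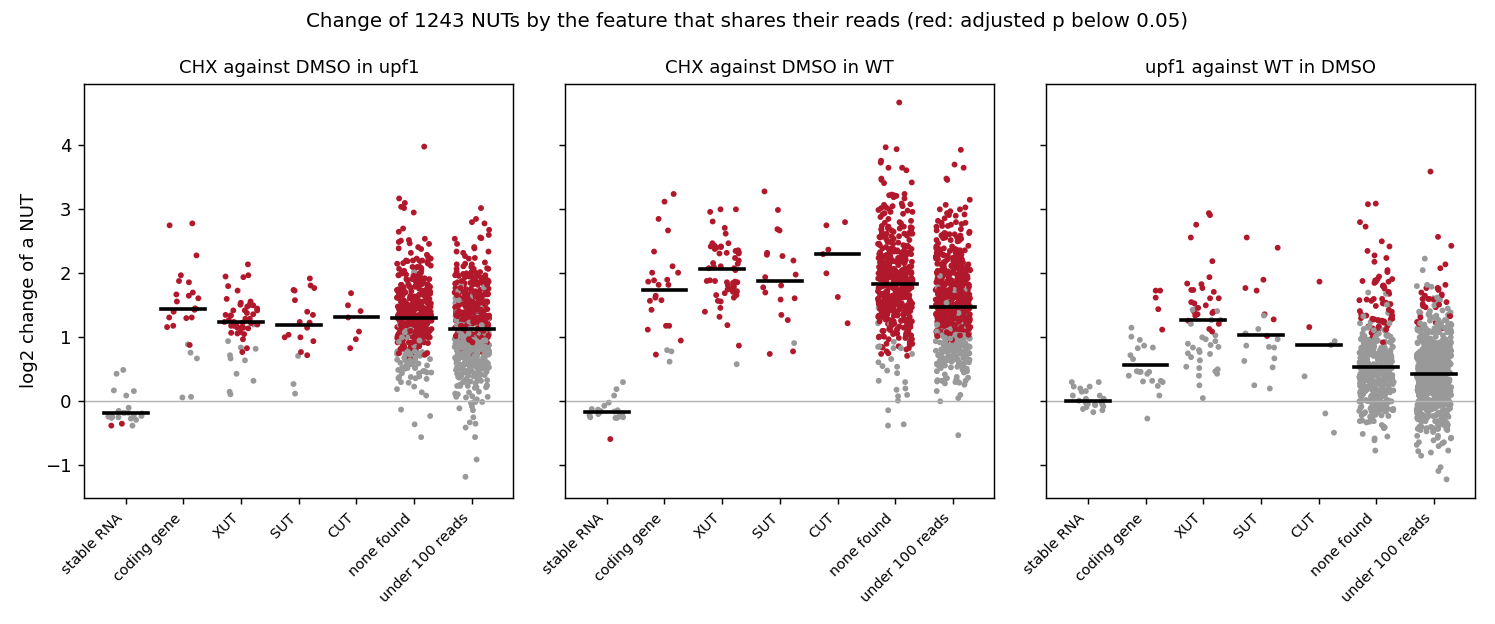
Log2 change of the 1243 tested NUTs by the kind of feature that shares their reads, in CHX against DMSO in upf1, CHX against DMSO in WT, and upf1 against WT in DMSO. Each point is a NUT, red where the adjusted p is below 0.05, and bars are medians. NUTs that share with a stable RNA lie near 0 in all 3 panels, on the deposited scale.

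The NUTs with a stable partner also held most of the sum over the class. The summed level of all NUTs was 121048 ± 717 in upf1 CHX, 115388 ± 3202 in upf1 DMSO, 124387 ± 3308 in WT CHX and 115432 ± 1445 in WT DMSO (SD, n = 2), a change of 1.05-fold on CHX in upf1 and 1.08-fold in WT. For the 1500 NUTs without a stable partner it was 27837 ± 1182, 10518 ± 1451, 24851 ± 2787 and 6506 ± 462 in the same order of groups. These sums were 2.66-fold higher on CHX in upf1 (log2 1.41 ± 0.148, SE) and 3.81-fold in WT (1.93 ± 0.136), and were 1.61-fold higher in upf1 than in WT in DMSO (0.69 ± 0.159) and 1.12-fold in CHX. The sums were not tested.

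The part of each of the 23 NUTs that lies outside its stable RNA was read apart from the RNA, a split made after their values were seen. In every library the NUT had at least as many reads as its partner, and the reads left over were divided by the extra length, 37204 nt in all. Pooled over the 23, these rests stood at 18.6 and 16.2 in upf1 CHX, 5.86 and 5.89 in upf1 DMSO, 20.8 and 17.8 in WT CHX, and 6.58 and 5.10 in WT DMSO. They rest on 114 to 1160 reads per library. Whether the extra length lies before or after the RNA, and whether another feature adds reads there, is not known from the files.

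On CHX, 16 of 21 rests tested rose in upf1 (median 1.32) and 16 of 21 in WT (median 1.48). In the same fit 64.1% and 69.8% of all features rose. Rests were tested at a mean of at least 2 over the 8 libraries, so a rest low in DMSO can pass through its CHX libraries. The rest of NUT0348 beyond snR32 passed at 2.48, with 0 and 0 in WT DMSO. Both CHX libraries lay above both DMSO libraries for 20 of 23 rests in each genotype, against 80.8% and 79.7% of all features in upf1 and WT. On the deposited scale, which all 3 counts use, none of the 23 stable RNAs rose in either genotype (0 by limma, 0 at an unadjusted p of 0.05, 0 by voom), with medians of -0.21 in upf1 and -0.19 in WT. Scaled to 1 protein-coding median, the NUTs that share their reads had medians of -1.69 in upf1 and -1.68 in WT. Relative to the protein-coding median the median rest lay 0.08 above in upf1 and 0.25 above in WT. Under both other scalings 0 rests were called higher in either genotype, and quantile normalization turned the WT median to -0.11. Rises in upf1 numbered 4 and 10 when upf1 CHX replicate 1 or 2 was left out, and 9 and 10 for upf1 DMSO replicate 1 or 2. In upf1 against WT 0 rests were called in DMSO (0 at an unadjusted p of 0.05) and the median was -0.04.

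The rest of NUT0426 beyond snR3, a pseudouridylation guide, had 31.8 and 24.9 in upf1 CHX, 10.2 and 9.92 in upf1 DMSO, 46.1 and 44.5 in WT CHX, and 12.1 and 6.82 in WT DMSO, on 669 of 28108 reads. Groups with and without CHX did not overlap, and the rest rose by 1.32 ± 0.301 in upf1 (limma adjusted p = 0.00957) and 2.09 ± 0.301 in WT (adjusted p = 0.00127). Beyond snR13 the rest of NUT0167 rose by 2.33 ± 0.390 in upf1 (adjusted p = 0.00441) and 1.48 ± 0.390 in WT (adjusted p = 0.0118), while the NUT as a whole fell. Beyond snR34 it rose by 1.22 ± 0.249 and 1.55 ± 0.249 in the same order (adjusted p = 0.00709 and adjusted p = 0.00184). The rest of NUT0490 beyond snR30 rose in WT by 3.10 ± 0.670 (adjusted p = 0.00545) and changed by 0.70 ± 0.670 in upf1 (adjusted p = 0.366), on 66 reads. NUT0426 was singled out after its values were seen. The rest of NUT0255 beyond snR82 had no rise in either genotype (0.08 and -0.29), and that of NUT1320 beyond snR86 held 1 read.

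**Figure D4:**
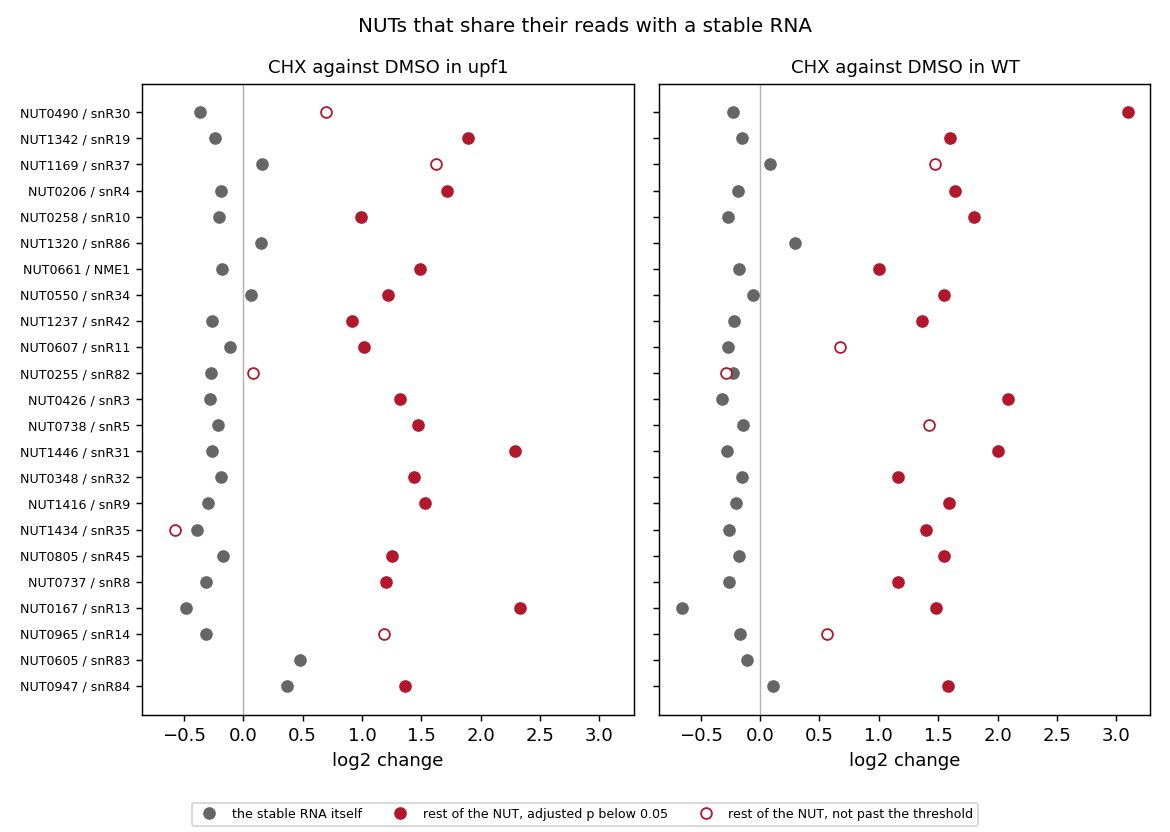
Log2 change on CHX in upf1 (left) and WT (right) for the 23 stable RNAs (grey) and for the reads of the NUT beyond them (red, filled where the adjusted p is below 0.05). The stable RNAs lie between -0.48 and 0.48 in upf1 and between -0.66 and 0.29 in WT; rests of NUT1320 and NUT0605 were not tested.

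The reads of the 26 NUTs placed with protein-coding genes differ from those of the gene by at most 5%, so a change of the whole NUT cannot be told apart from one of the mRNA. In 9 of the 26 the NUT and the gene had the same reads, while NUT0953 held 240 of 12109 reads beyond the ribosomal protein gene RPL12A; such reads were not tested here. Reads of ribosomal protein genes with a near-identical copy are uncertain. NUT1166 holds the reads of URA2, the first enzyme of pyrimidine synthesis, whose transcription is known to be attenuated through Nrd1 and Nab3, and had 132 and 87.0 in upf1 CHX, 47.4 and 37.7 in upf1 DMSO, 103 and 61.9 in WT CHX, and 35.7 and 36.0 in WT DMSO. NUT0422, with URA8, a CTP synthase, had 102 and 93.3 in upf1 CHX, 36.8 and 35.2 in upf1 DMSO, 106 and 105 in WT CHX, and 33.1 and 21.9 in WT DMSO. Both rose on CHX in upf1, by 1.30 ± 0.318 and 1.39 ± 0.245, and in WT, by 1.11 ± 0.318 and 1.89 ± 0.245 (limma). NUT0379, with the ribosomal protein gene RPS14B, and NUT0784, with RPS9A, had no read that their gene lacked. NUT0784 had 847 and 740 in upf1 CHX, 156 and 87.9 in upf1 DMSO, 655 and 387 in WT CHX, and 50.9 and 52.8 in WT DMSO. These members were chosen after their values were seen.

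Loss of UPF1 without CHX moved fewer NUTs. In DMSO 142 of 1243 were higher in upf1 (11.4%), against 14.7% of all features tested, and 0 were lower by limma (2 at an unadjusted p of 0.05, 1 by voom), against 0.395%. The median NUT changed by 0.48, against 0.54 over all features, 0.37 over CUTs, 0.88 over XUTs and 1.03 over SUTs; 44 of 756 CUTs, 327 of 1373 XUTs and 233 of 705 SUTs rose. Among all 1523 NUTs both upf1 libraries lay above both WT libraries in 728 (47.8%), against 47.7% of all features. All but 2 of the 142 had also been called on CHX in WT, a comparison that shares the WT DMSO libraries. The count was 8 without upf1 DMSO replicate 1, 106 without WT DMSO replicate 1, 54 to 82 without any other 1 library, 0 with the 4 compared libraries alone in the fit, and 57 scaled to 1 protein-coding median (NUT median 0.18). Quantile normalization left 15 and turned the NUT median to -0.21.

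By what shared the reads, 28 of 56 NUTs with a XUT, 8 of 20 with a SUT, 2 of 7 with a CUT, 5 of 26 with a protein-coding gene and 66 of 455 with none found (14.5%) were higher in upf1 in DMSO, against 14.7% of all features tested, at medians of 1.26, 1.03, 0.87, 0.55 and 0.53. With fewer than 100 reads it was 33 of 656 (5.03%, median 0.41). The 23 with a stable RNA had 0 called (0 at an unadjusted p of 0.05, 0 by voom) and a median of 0.00. The 5 with a coding gene were those of SYN8 (an endosomal SNARE), MIG3 (a transcriptional regulator), SHH4, URA10 (a minor orotate phosphoribosyltransferase) and MSK1 (the mitochondrial lysyl-tRNA synthetase).

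The 8 NUTs named for rises in upf1 had 1 to 17 reads in WT DMSO. NUT0523 (1028 nt, chromosome XII, with the reads of SUT270 and XUT0655) had 89.0 and 93.9 in upf1 CHX, 77.0 and 69.5 in upf1 DMSO, 41.1 and 41.1 in WT CHX, and 12.7 and 4.85 in WT DMSO. It rose in upf1 in DMSO by 2.90 ± 0.353 (limma adjusted p = 0.00473), changed by 1.12 ± 0.353 in CHX (adjusted p = 0.145), and changed on CHX by 0.31 ± 0.353 in upf1 (adjusted p = 0.436), against a rise of 2.10 ± 0.353 in WT (adjusted p = 0.0021). The interaction was -1.79 ± 0.499 (adjusted p = 0.344).

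NUT0036 (522 nt, chromosome II, listed between YBR090C and TIM12) had 42.1 and 34.8 in upf1 CHX, 21.7 and 29.2 in upf1 DMSO, 20.8 and 26.5 in WT CHX, and 0 and 3.19 in WT DMSO. It rose by 3.08 ± 0.450 in upf1 in DMSO (limma adjusted p = 0.00773), on 30 reads against 1, a ratio of 21.9 (95% interval 3.64 to 894, counting error only). NUT0547 (SUT281), NUT1423 (XUT1700), NUT1187 (XUT1386), NUT0594, NUT0564 and NUT1220 rose by 2.55, 2.93, 2.75, 3.07, 2.79 and 2.72. All 8 calls ended when only the 4 compared libraries were fitted, and those of NUT0594, NUT1423, NUT0564, NUT1187 and NUT1220 when upf1 DMSO replicate 1 was left out. NUT1187 also lost its call without upf1 DMSO replicate 2, NUT1220 without WT DMSO replicate 2, and NUT0564 and NUT1187 under both other scalings.

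**Figure D5:**
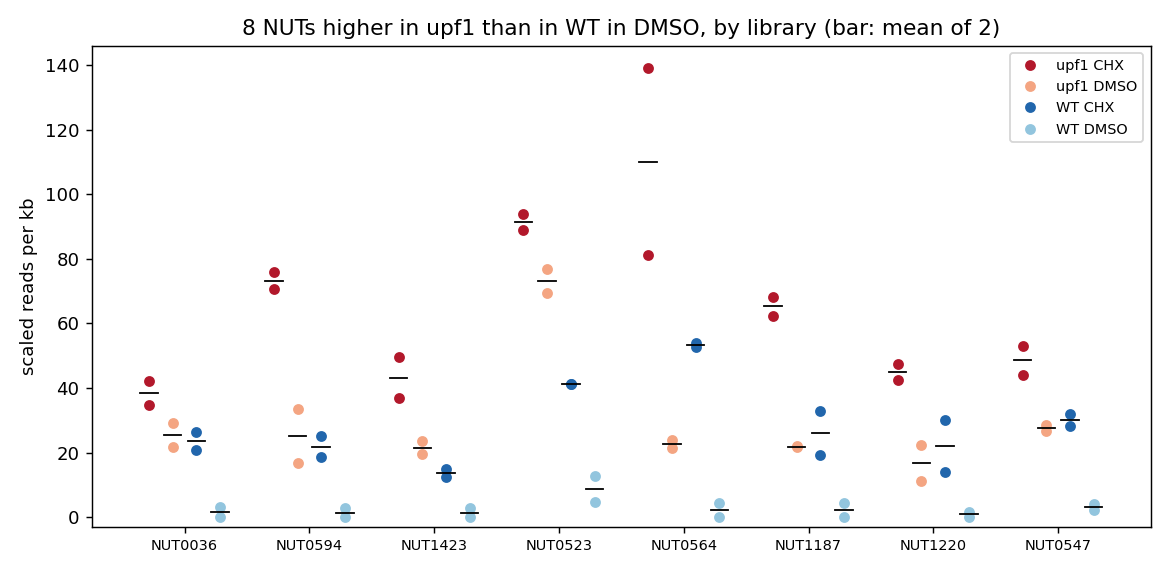
Level of the 8 NUTs with the largest called rises in upf1 against WT in DMSO, among those with at least 20 reads and groups that do not overlap, in scaled reads per kb, by library; short bars are means of 2 libraries. The choice fixes that the WT DMSO libraries lie below the upf1 DMSO libraries. In every one of the 8 the WT DMSO libraries also lie below all CHX libraries.

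In CHX, upf1 against WT called 0 NUTs in either direction by limma, against 0.0481% of all features higher and 0.0385% lower; 108 (8.69%) passed an unadjusted p of 0.05, against 23.6% of all features, and voom called 36 higher and 2 lower. The median NUT changed by 0.10, against 0.43 over all features tested. Both upf1 libraries lay above both WT libraries in 488 of 1523 NUTs (32.0%), against 48.4% of all features, and below both in 270 (17.7%), against 9.68%.

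Genes of the Nrd1-Nab3-Sen1 complex and of nuclear surveillance, 25 in all, had 19 rises on CHX in upf1 (median 1.30) and 16 in WT (1.16), and 1 rise, of the exosome subunit RRP40, in upf1 against WT in DMSO, beside 64.1%, 69.8% and 14.7% of all features. NRD1 itself, which limits its own mRNA, had 235 and 196 in upf1 CHX, 60.6 and 42.2 in upf1 DMSO, 218 and 169 in WT CHX, and 47.1 and 46.5 in WT DMSO, and rose on CHX by 2.04 ± 0.250 in upf1 (limma adjusted p = 0.00227) and 1.99 ± 0.250 in WT (adjusted p = 0.000854). IMD2, another gene of known Nrd1-dependent early termination, rose by 1.67 in upf1 and 2.33 in WT, and 4 of 6 such genes rose in each genotype, near the share of all features. RRP6, the nuclear exosome nuclease, rose by 1.36 and 1.16, and SEN1 by 1.14 and 0.75. NAB3 rose by 1.14 in upf1 and changed by 0.78 in WT (limma adjusted p = 0.0513). PAP2, also of the 25, was called in neither genotype, with 0.91 in upf1 (adjusted p = 0.109) and 0.63 in WT (adjusted p = 0.239). NAM7, the listed name of UPF1, was read at 13.5 and 10.1 in upf1 CHX, 5.94 and 2.80 in upf1 DMSO, 83.5 and 44.8 in WT CHX, and 14.8 and 15.2 in WT DMSO, each upf1 library below each WT library. MATa marker sums ran from 5926 to 28801 and MATα marker sums from 10.1 to 108. Of the deleted alleles only HIS3 is listed, and it was read at 37.6 to 311 across the 8 libraries.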

How the data were processed

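The authors deposited signal densities (reads per nucleotide times a library factor) for 11844 features. Trim Galore, HISAT2 2.2.0, featureCounts 2.0.0, DESeq2 and genome R64 are named in the submitters' processing notes; roles and factors are not given in the sources used here. The labels name a stranded mRNA kit, the design text total RNA. All positive values (100%) were whole reads within 0.001 reads at 1 length per feature, of which 0 of 500 features changed at random by 3% had one; the length equalled RefSeq for 79 of 82 snoRNAs and spliceosomal RNAs and was shorter by a factor of 2 for 3, so reads of a feature may be understated.

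log2(density times 1000 + 2) of all 8 libraries was tested with limma 3.58.1 in R 4.3.3 (trend, 4 residual and 3.60 prior degrees of freedom), two-sided, with Benjamini-Hochberg adjustment over 10392 features of mean at least 2, rRNA aside, at 0.05. Intervals are exact at 95%; a count of 0 stands for up to 3 reads. The NUTs named are the 10 of highest mean, the 8 largest called changes per direction with at least 20 reads and groups that do not overlap, NUTs sharing reads with a snoRNA (10 by reads), and 5 just inside and outside the limit; exceptions are marked. Members and lists were chosen with earlier results of these data known. The design text gives 2 biological replicates per condition. Deviations of same-numbered libraries from their group means correlated between groups by -0.0438 to 0.117, so the numbers were not used as pairs. Alternatives were pseudocounts 1 and 5, no filter, the common protein-coding median, quantile normalization, voom, the compared libraries alone, a replicate block and each library left out.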

Additional observations from a re-analysis of the deposited data

How the results depend on the processing

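Other settings kept the direction of every called change of a named NUT; changes of named NUTs that were not called were not followed across settings. With pseudocount 5, 89 NUTs rose in upf1 against WT in DMSO and 1 fell on CHX in upf1. With the common protein-coding median, 265 NUTs were higher and 34 lower on CHX in WT, 8 and 28 on CHX in upf1, and 57 and 6 in upf1 in DMSO; quantile normalization gave 68 and 39, 9 and 24, and 15 and 3. All 265 and 52 of the 57 were also called as deposited, and 23 of the 34 share reads with a stable RNA. Voom gave 1 lower on CHX in upf1, 1 lower in upf1 in DMSO, and 36 higher and 2 lower in upf1 in CHX. With the compared libraries alone 0 fell on CHX in upf1 and 0 rose in upf1 in DMSO. Leaving out 1 library gave 727 to 986 higher and 0 to 2 lower on CHX in WT, 247 to 797 and 0 to 2 on CHX in upf1, and 8 to 106 higher in upf1 in DMSO.

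The labels do not say that replicate numbers pair cultures, and with the replicate block 1000, 795 and 148 NUTs rose on CHX in WT, on CHX in upf1 and in upf1 in DMSO, and 4 fell on CHX in upf1; the other counts did not change call. For rests beyond stable RNAs, an alternative set chosen after seeing the data, both scalings gave 0 and 0 rises in WT and upf1, and leaving out a library 11 to 16 and 4 to 17; voom was not run for rests.

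NUTs that share reads with any feature numbered 132, against 172 at 10% and 79 with at least 200 reads. Without NUTs that share with a stable RNA or a coding gene, summed levels were 21630 in upf1 CHX, 8434 in upf1 DMSO, 19684 in WT CHX and 5036 in WT DMSO. Low reads in WT DMSO, with a median of 2 and 1 per NUT, limit single members.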
